A study of Sus scrofa with 80 samples.

Results

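Ion channels and the receptors of classical neurotransmitters were examined in 5 endocrine tissues of the pig. The genes were those with a single symbol in the array's annotation whose symbol begins as the families of potassium channels and their partners (KCN), voltage-gated sodium channels (SCN and a digit), voltage-gated calcium channels (CACN), GABA (GABR), ionotropic and metabotropic glutamate (GRIA, GRIK, GRIN and GRM), nicotinic and muscarinic acetylcholine (CHRN and CHRM), serotonin (HTR), dopamine (DRD), adrenergic (ADRA and ADRB) and glycine (GLRA and GLRB) receptors do. The rule found 47 of the 6765 genes with a symbol of their own. They comprised 14 potassium channels, 8 partners of potassium channels, 5 calcium channel subunits, 7 serotonin, 3 adrenergic, 2 muscarinic and 2 nicotinic receptor genes, and 1 gene each for GABA, glycine, ionotropic glutamate and dopamine receptors. No voltage-gated sodium channel and no metabotropic glutamate receptor was among them. The remaining 2, HTRA1 and HTRA4, encode secreted serine proteases that share only the first letters of their symbol with serotonin receptors, so 45 genes were channels, channel partners or receptors.

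RNA of 16 pigs was hybridised to Affymetrix porcine arrays, 1 array for each animal and tissue and 80 in all, from hypothalamus, adenohypophysis, thyroid gland and backfat (16 arrays each), testis (9) and ovary (7). There were 4 animals each of Duroc (mean age 83 days), Iberian (89), Large White (87) and Youli (80), with 2 females and 2 males per breed except in Youli (1 female and 3 males). The animals came from several breeding companies, received no experimental treatment and were reared together after weaning. Before tissue collection all were fasted and killed with an overdose of a barbiturate. Each array holds unsorted tissue of 1 animal and so a mixture of cell types. In it, fewer cells of a type and less RNA per cell cannot be told apart. Of thyroid and gonads, the paper states that only part of the organ was sampled. Animals are named here by breed (DU, IB, LW, YL), sex (F, M) and number, as in IBF25. Values are log2 intensities after GCRMA, a normalisation that subtracts background by probe sequence; silent genes then lie near log2 2, and log2 4 was taken as a working level above which a gene was counted as measured. Because each probeset binds with its own strength, levels were compared only between tissues or animals for the same gene.

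Most tissues carried their defining mRNAs on every array. SNAP25 (neurons) lay between 12.24 and 13.19 in hypothalamus, PRL (prolactin) between 14.94 and 15.57 in adenohypophysis, TG (thyroglobulin) between 13.81 and 14.63 in thyroid, INSL3 (Leydig cells) between 13.88 and 14.67 in testis and ADIPOQ (adiponectin) between 11.53 and 14.04 in backfat. The array labelled ovary of IBF25 stood apart. INHA, FST and ZP3, which mark granulosa cells and oocytes, were 1.54, 2.22 and 2.22 there, against medians of 11.17, 11.07 and 9.01 over the 7 ovary arrays, and none of the 5 granulosa genes listed reached log2 4, while 4 of them did on each of the other 6 arrays. FOXL2, the 5th of that list, was at 1.81 to 1.88 on all 7 ovary arrays. Without the ovary array of IBF25, 5 members were called higher in ovary in place of 4, and the counts of 11 members at log2 4 or more, 5 lower and 1 leading were as with it. Values without it are given beside the ovary results that turn on it. Skeletal muscle mRNA varied in backfat, with from 0 to 13 of the 13 muscle genes on the array at log2 4 or more and the most in YLM19. In testis PRM1, a gene of late spermatids, was at 9.24, 12.03 and 11.93 in LWM02, YLM19 and YLM20 and at 2.33 to 2.49 in the other 6 boars. For 11 of the 16 thyroids, breed or sex as given in the title conflicted with the label fields, and the titles were used.

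An ion channel is a membrane protein that opens to let potassium, calcium, sodium or chloride pass, and in endocrine cells, as in neurons, the resulting electrical activity governs calcium entry and the release of hormone or transmitter. Potassium channels draw the membrane back towards rest. Their small partners (KCNE and KCNIP proteins) alter how quickly and at what voltage they open, and the beta and alpha2-delta subunits do the same for calcium channels and bring them to the cell surface. Receptors for GABA, glycine, glutamate and nicotinic acetylcholine are themselves channels, whereas dopamine, adrenergic, muscarinic and most serotonin receptors act through G proteins.

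Of the 47 genes, 22 had a mean of log2 4 or more in at least 1 tissue (46.8%, against 68.4% of all probesets on the array). The hypothalamus held 14 such genes, the adenohypophysis 13, the ovary 11, the testis and the backfat 7 each and the thyroid 5, which were 29.8, 27.7, 23.4, 14.9, 14.9 and 10.6% of the members. For all probesets the share was 57.4% in hypothalamus, 57.1% in adenohypophysis, 58.4% in ovary, 57.1% in testis, 56.0% in backfat and 56.7% in thyroid. All arrays were normalised together, which keeps the share of all probesets nearly equal between tissues. That share is therefore no yardstick for how far the number of measured members differed between tissues. The order depended on the level chosen: at log2 3 there were 18 in hypothalamus, 17 in ovary, 15 in adenohypophysis, 14 in testis and 11 each in thyroid and backfat, and at log2 5 there were 10, 6, 11, 4, 5 and 5. The 22 genes were the same 22 that were called different between tissues in the tests described here, and the other 25 were called in none. This overlap is largely built in, since means near background leave little room for the 1 log2 that a call requires.

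**Figure D1:**
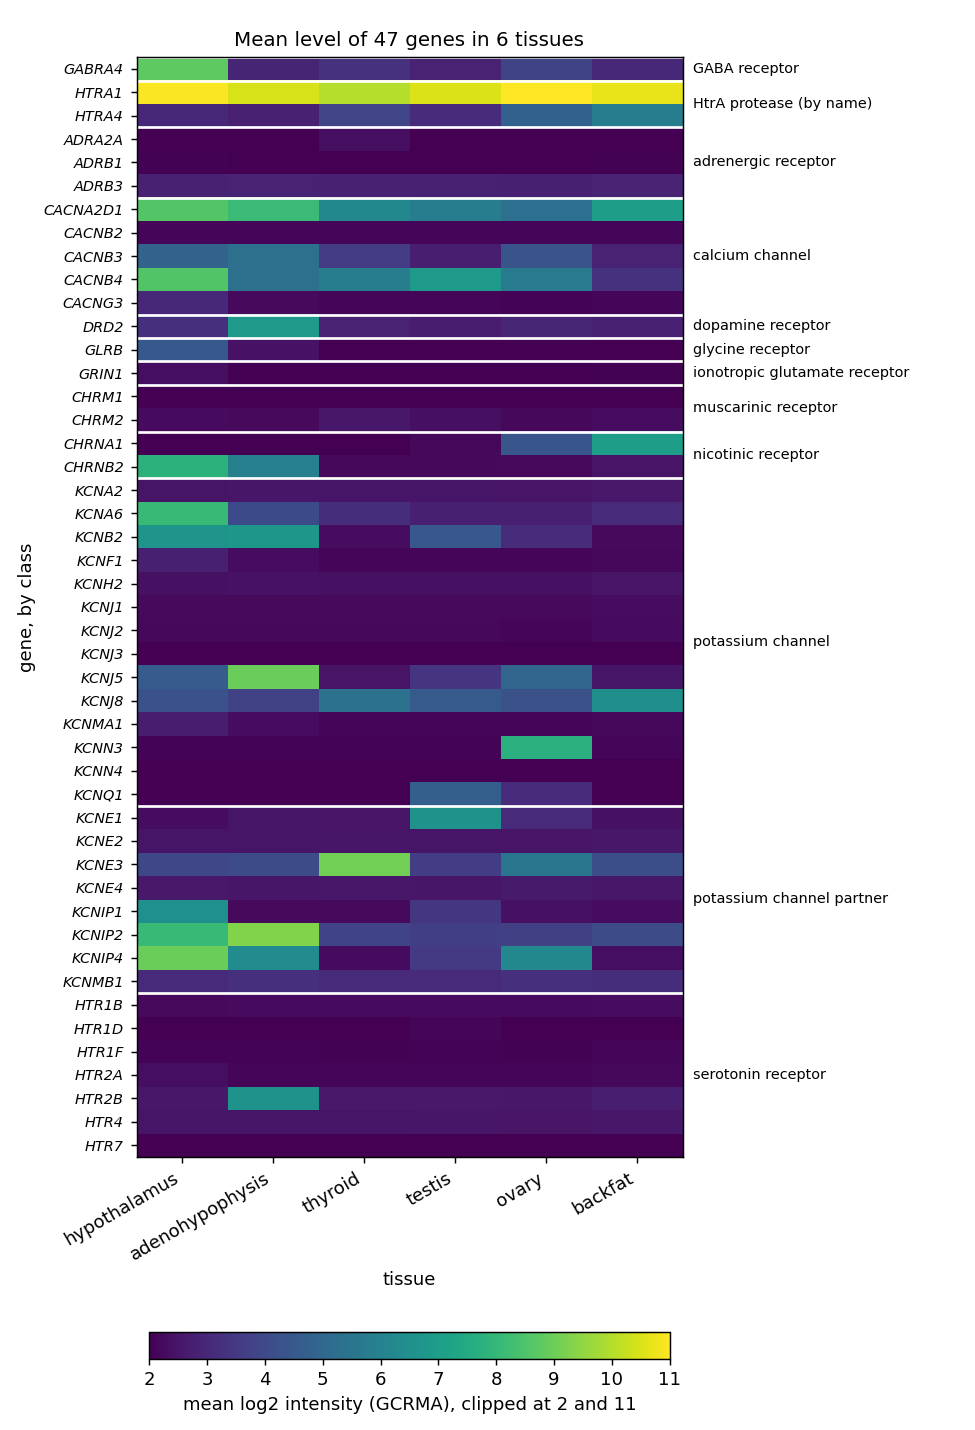
Mean log2 intensity (colour) of each of the 47 genes (rows, grouped by class) in 6 tissues (columns; 16 arrays each, 9 in testis and 7 in ovary). Bright cells gather in hypothalamus and adenohypophysis, single bright cells stand for KCNE3 in thyroid, KCNN3 in ovary and KCNE1 in testis, and the adrenergic, muscarinic and most serotonin receptor rows are dark in all tissues.

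Each tissue was compared with the mean of the other 5 in a limma model with breed and sex, and a gene was called at a Benjamini-Hochberg adjusted p under 0.05 over all probesets and a difference of at least 1 log2 (2-fold). In hypothalamus 11 members were called higher (23.4% of the 47, against a background of 11.8% of all probesets) and 5 lower (10.6%, background 12.2%). In adenohypophysis 9 were higher (19.1%, background 8.6%) and 7 lower (14.9%, background 9.13%). In thyroid 1 was higher (background 7.89%) and 9 lower (background 7.95%), in testis 3 higher (background 8.48%) and 12 lower (background 8.31%), in ovary 4 higher (background 8.17%) and 5 lower (background 6.31%), and in backfat 3 higher (background 8.95%) and 12 lower (background 10.4%). A gene raised in 1 tissue alone is by construction below the mean of the others everywhere else, and the lower calls of KCNN3, which was higher in ovary and near background in all other tissues, were of that kind. A stricter call required a gene to be higher than in each of the other 5 tissues. By this, 7 members led in hypothalamus (background 5.04%), 4 in adenohypophysis (1.65%), 1 in thyroid (2.05%), 2 in testis (2.36%), 1 in ovary (1.95%) and 3 in backfat (3.33%), 18 in all. These backgrounds cover all probesets, whereas each member is the brightest probeset of its gene. The 6765 genes with a symbol, chosen alike, give another background. In hypothalamus, adenohypophysis, thyroid, testis, ovary and backfat in turn, 12.7, 9.12, 9.9, 10.9, 10.1 and 13.1% of them were higher. In the same order 17.4, 12.5, 9.45, 9.84, 7.46 and 11.9% were lower, and 5.11, 1.61, 2.16, 2.9, 2.39 and 4.95% led.

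The 7 genes that led in hypothalamus were 3 receptor subunits (GABRA4, CHRNB2 and GLRB), the potassium channel KCNA6, 2 of the 3 KCNIP genes (KCNIP1 and KCNIP4) and the calcium channel subunit CACNB4. GABRA4, the alpha4 subunit of the GABA-A receptor, ranged from 7.63 over a median of 8.73 to 10.19 on the 16 hypothalamus arrays. On all adenohypophysis, testis and backfat arrays it stayed between 2.72 and 3.53, so these groups did not overlap. The difference from the mean of the other tissues was 5.59 (SE 0.18, adjusted p = 2.90e-41). In ovary it was at 6.16 in DUF13 and 6.39 in YLF21 but between 2.65 and 3.24 in the other 5. In thyroid 2 arrays reached log2 4, with a highest value of 4.99.

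CHRNB2, the beta2 subunit of neuronal nicotinic receptors, was at 6.63 to 9.58 (median 7.77) in hypothalamus. In adenohypophysis it was at 5.56 to 6.29 (median 5.89). The gap between both tissues was 1.88 (SE 0.12, adjusted p = 1.36e-23), and no array of thyroid, testis or ovary exceeded 2.32. GLRB, the beta subunit that anchors glycine receptors at synapses, ranged from 3.08 over 4.17 to 6.14 in hypothalamus. Only 11 of the 16 hypothalamus arrays reached log2 4, and every other tissue had a mean between 1.91 and 2.43. The difference from the other tissues was 2.42 (SE 0.12, adjusted p = 4.60e-29).

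KCNA6 encodes a Kv1 channel, a voltage-gated channel of axons. It was at 7.61 to 8.57 (median 8.09) in hypothalamus and at 3.41 to 4.9 (median 3.97) in adenohypophysis. Thyroid, testis, ovary and backfat had means of 3.17, 2.80, 2.80 and 3.07, and the difference of hypothalamus from the other tissues was 4.88 (SE 0.10, adjusted p = 2.24e-54). The KCNIP genes encode calcium-binding proteins that attach to Kv4 channels, which carry a fast, transient potassium current. KCNIP1 was at 5.82 to 7.34 (median 6.57) in hypothalamus and at 2.20 to 2.28 in adenohypophysis. Outside the hypothalamus it reached log2 4 in 3 testes only, where IBM23, IBM24 and LWM02 had 4.40, 4.41 and 4.47 and the other 6 boars 2.24 to 3.43. KCNIP4 was at 8.55 to 9.92 (median 8.99) in hypothalamus, at 4.84 to 7.56 (median 6.32) in adenohypophysis and near background in all thyroid and backfat arrays, none above 2.37. Its levels in adenohypophysis and ovary, with means of 6.35 and 6.19, differed by 0.07 in favour of adenohypophysis (SE 0.35, adjusted p = 0.879), and without the ovary array of IBF25 by -0.57, with the ovary higher (SE 0.28, adjusted p = 0.0831).

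Of the 5 calcium channel genes, 3 reached log2 4 in a tissue mean (CACNB4, CACNA2D1 and CACNB3). CACNB4, a beta subunit, was at 7.97 to 10.20 (median 8.46) in hypothalamus and at 5.88 to 8.03 (median 6.91) in testis, which came second. Means in adenohypophysis, thyroid and ovary were close, at 5.33, 5.79 and 5.72, while backfat, at 2.71 to 3.65, was the only tissue in which no array reached log2 4. The hypothalamus exceeded the testis by 1.69 (SE 0.27, adjusted p = 7.64e-08). CACNA2D1, the alpha2-delta subunit to which gabapentin binds, was at 8.60 ± 0.43 (SD, n = 16) in hypothalamus and 8.15 ± 0.38 in adenohypophysis, and this gap of 0.46 (SE 0.26) did not pass (adjusted p = 0.141). It was above log2 4 on nearly all arrays of every tissue, with means of 6.19 in thyroid, 5.82 in testis, 5.30 in ovary and 7.05 in backfat. CACNB3 reached log2 4 on 13 hypothalamus, 15 adenohypophysis and 5 ovary arrays and on none of thyroid, testis or backfat. Its mean in adenohypophysis, 5.32, was higher than in hypothalamus, 4.87, by 0.45 (SE 0.16, adjusted p = 0.0133), under the 1 log2 required for a call.

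KCNB2, a delayed rectifier channel of the Kv2 family, was measured alike in hypothalamus and adenohypophysis. Its mean was 6.67 ± 0.46 (SD, n = 16) in hypothalamus and 6.78 ± 0.36 in adenohypophysis, and the difference of 0.11 (SE 0.16) did not pass (adjusted p = 0.672). The testis, at 4.44 ± 0.67 (n = 9), lay between these and the ovary (3.13), and thyroid and backfat were near background at 2.29 and 2.25.

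The 4 genes that led in adenohypophysis were a dopamine receptor, a serotonin receptor and 2 genes of potassium channels. DRD2 is the inhibitory receptor through which dopamine from the hypothalamus holds back prolactin. It ranged from 3.41 over a median of 7.57 to 8.46 in adenohypophysis. The arrays of IBF22, LWM04 and LWF05 had 3.41, 3.99 and 4.27, and all others 6.48 to 8.46. Outside this tissue it reached log2 4 in LWM02 hypothalamus (5.02) and in the ovary array of IBF25 (4.17), and on no other array. The adenohypophysis exceeded the mean of the other tissues by 3.93 (SE 0.22, adjusted p = 8.13e-27). On the 3 arrays of low DRD2, PRL was 15.20, 15.18 and 14.97, within the range of the others, and the log2 of the summed intensity of 10 endocrine pituitary genes was 17.48, 17.52 and 17.58, against 17.30 to 17.74 over all 16. KCNE3 was higher in these 3 (5.42, 4.73 and 5.76) than in 12 of the other 13 animals (3.18 to 4.07), and DUM12 had 4.74. The part of these differences in DRD2 was not tested.

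HTR2B, a serotonin receptor coupled to calcium release, was at 4.77 to 7.38 (median 6.78) in adenohypophysis, and LWF05 was again low, at 4.77, with all others at 6.19 or more. No array of another tissue exceeded 3.09, so that the tissues did not overlap. The difference was 4.0 (SE 0.08, adjusted p = 3.21e-55). The other 6 serotonin receptors (HTR1B, HTR1D, HTR1F, HTR2A, HTR4 and HTR7) had means of 2.60 or less in every tissue. Single arrays stood higher, namely HTR1D in 1 testis (YLM19, 4.06, with the other 8 boars at 1.83 to 1.90) and in 1 adenohypophysis (YLM20, 2.93), and HTR2A in 1 hypothalamus (LWF05, 3.54).

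KCNJ5, a channel opened by G proteins after receptors such as the D2 dopamine receptor are engaged, was at 8.01 to 9.67 (median 9.08) in adenohypophysis. Its hypothalamus values, 3.02 to 6.15 (median 4.58), and those of ovary, 2.80 to 8.99 (median 4.55), were intermediate and did not differ beyond their spread. The fitted difference, hypothalamus minus ovary, was -0.40 (SE 0.39, adjusted p = 0.420) and without the ovary array of IBF25 it was 0.20 (SE 0.34, adjusted p = 0.651). Thyroid and backfat were near background, with no array above 2.85. The adenohypophysis exceeded the other tissues by 5.38 (SE 0.23, adjusted p = 3.82e-33). KCNIP2, another Kv4 partner, was at 8.57 to 9.98 (median 9.21) in adenohypophysis and 6.56 to 8.89 (median 8.11) in hypothalamus, a gap of 1.18 (SE 0.16, adjusted p = 6.33e-10) with overlapping arrays. In the other tissues its means were 3.67 to 4.10. Pituitary mRNA was present on some arrays of hypothalamus and thyroid. PRL was 11.34 in the hypothalamus of YLM19, where KCNJ5 was 5.04, DRD2 2.86 and HTR2B 2.59, and it reached 13.74 on 1 thyroid array, while no thyroid exceeded 2.85 for KCNJ5 or HTR2B and 3.0 for DRD2. The part of pituitary mRNA in the hypothalamus values was not tested.

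**Figure D2:**
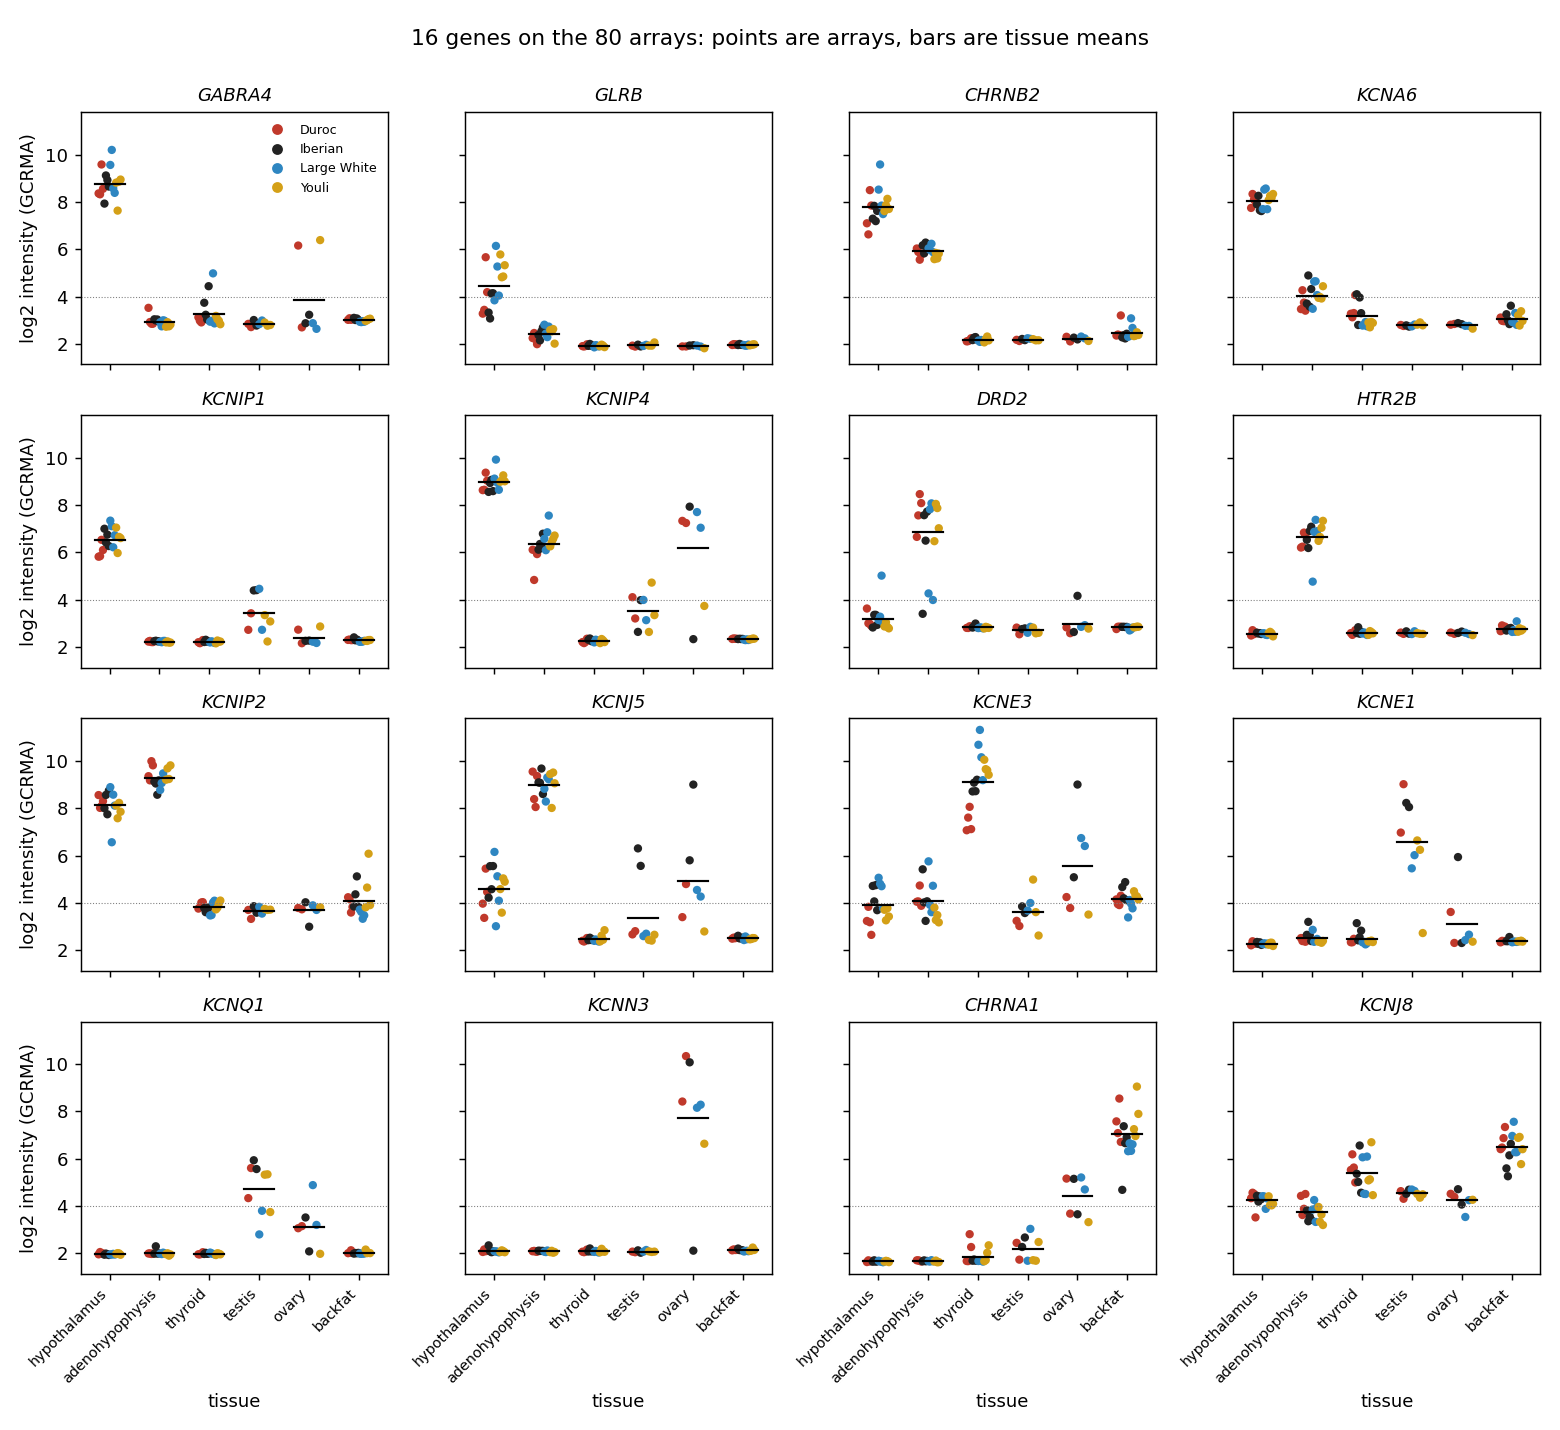
Log2 intensity (vertical axis) of 16 genes on the 80 arrays, by tissue (horizontal axis). Points are arrays coloured by breed, bars are tissue means and the dotted line marks log2 4. GABRA4 in hypothalamus (7.63 to 10.19) and HTR2B in adenohypophysis (4.77 to 7.38) lie above all arrays of the other tissues, DRD2 has 3 low arrays in adenohypophysis (3.41 to 4.27), and KCNN3 in ovary has 1 array at background (2.12).

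The hypothalamus arrays differed among themselves in several members. On the array of LWF06, 6 of the 14 members measured there had their highest value of the 16 animals and 2 their lowest. CACNB4 was 10.20, CHRNB2 9.58, GABRA4 10.19, GLRB 6.14, KCNB2 7.97 and KCNIP4 9.92, each the highest, whereas KCNIP2 was 6.56 and KCNJ5 3.02, each the lowest. LWF05, the other Large White female, had the highest value for 4 further members, CACNA2D1 (9.37), KCNIP1 (7.34), KCNIP2 (8.89) and KCNJ5 (6.15), and the lowest for HTRA1. The same counts were not made over all probesets, so those of LWF06 and LWF05 cannot be read as particular to the members. Members that were near background in most hypothalamus samples also appeared on the array of LWF06. KCNF1, a subunit that modifies Kv2 channels, was 6.43 on it and 2.15 to 3.57 in the other 15, and KCNMA1, the large-conductance channel opened by calcium, was 4.38 against 2.19 to 3.43. GRIN1, the obligatory subunit of NMDA receptors, was 4.27 in LWF06 and 3.74 in DUM12 and between 1.99 and 2.48 in the other 14. CACNG3, a partner of AMPA receptors, reached log2 4 in LWF06 (4.21), YLM20 (4.12) and DUM12 (4.01). The log2 of the summed intensity of 7 neuronal genes was also highest in LWF06, 15.68, against 14.96 to 15.44 in the others. Its part in the result was not tested.

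The thyroid had the fewest measured members, and KCNE3 was its only higher call. KCNE3 is a small partner that holds the KCNQ1 channel open, known from salt-secreting epithelia. It ranged from 7.07 over a median of 9.19 to 11.30 in the 16 thyroids, and exceeded the mean of the other tissues by 4.84 (SE 0.23, adjusted p = 4.14e-30). Ovary came next at 5.54 ± 1.97 (SD, n = 7), with IBF25 at 9.0 and the other 6 at 3.51 to 6.74. The adenohypophysis, backfat, hypothalamus and testis had means of 4.08, 4.17, 3.92 and 3.62. A further KCNE3 probeset was also highest in thyroid, at 2.26 to 7.90 (median 5.54) in thyroid and with means of 2.11 to 2.55 elsewhere. KCNQ1 itself was at 1.93 to 2.05 on all thyroid arrays, and KCNE2, another partner of this channel, was near background there as elsewhere. ADRA2A, an alpha2 adrenergic receptor, was between 1.75 and 2.49 in 13 thyroids and at 3.55, 3.91 and 4.88 in LWF06, YLF21 and YLM19. Its difference from the other tissues, 0.53 (SE 0.12, adjusted p = 7.20e-05), was under 1 log2. KCNJ8 was also measured in all 16 thyroids, at 4.46 to 6.69.

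The 2 genes that led in testis are known as the subunits of 1 channel. KCNQ1 forms the pore and KCNE1 slows its opening, and in the heart together they carry the slow current that ends the action potential. KCNE1 was at 2.73 to 9.01 (median 6.64) in testis, where YLM20 alone was near background and the other 8 boars had 5.46 or more. In ovary 6 of 7 arrays were at 2.31 to 3.62 and IBF22 at 5.94, and no array of another tissue exceeded 3.20. The testis exceeded the other tissues by 4.07 (SE 0.27, adjusted p = 1.52e-22). KCNQ1 was at 2.80 to 5.93 (median 5.32) in testis and 1.99 to 4.89 (median 3.15) in ovary, and in all other tissues at most 2.30. The testis exceeded the ovary by 1.60 (SE 0.26, adjusted p = 3.90e-07), and by 1.41 without IBF25 (adjusted p = 5.10e-06), with overlapping arrays. In this fit the spread is shared by all tissues, most of which were at background for KCNQ1. In the fit to the gonads alone the difference was 1.65 (SE 0.56, adjusted p = 0.0434). Without IBF25 it was 1.38 there (adjusted p = 0.0796), which did not pass. In the 3 boars with PRM1 at 9.2 or more (LWM02, YLM19 and YLM20) KCNE1 was 5.46, 6.24 and 2.73, and in the other 6 it was 6.02 to 9.01. In the same 3, KCNQ1 was 2.80, 5.34 and 3.75, and in the other 6 it was 3.80 to 5.93. The log2 of the summed intensity of 5 Leydig cell genes was also lowest in these 3 boars, at 14.28, 14.90 and 14.78, against 15.01 to 15.83 in the other 6. The part of germ cell and Leydig cell content in these values was not tested. When the log2 values of a gene's probesets were averaged, KCNQ1 no longer reached 1 log2 above the other tissues (0.61), since its further probesets were at background in all tissues.

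In ovary KCNN3 led. It encodes the small-conductance potassium channel SK3, which calcium opens. Its values were 8.41 in DUF13, 10.33 in DUF14, 10.06 in IBF22, 8.15 in LWF05, 8.28 in LWF06, 6.63 in YLF21 and 2.12 in IBF25, the array without granulosa and oocyte mRNAs. All 73 arrays of other tissues lay between 2.03 and 2.34. The other 6 ovaries thus stood wholly apart from every other sample, whereas that array was at background. The difference from the other tissues was 5.60 (SE 0.34, adjusted p = 1.00e-23) and 6.55 without that array (adjusted p = 2.91e-47). KCNIP4 followed the same pattern, with 7.04 to 7.93 in 5 ovaries, 3.74 in YLF21 and 2.34 in IBF25. Its difference of 1.59 was 2.23 without IBF25, and HTRA4 then also passed in ovary (1.42, adjusted p = 3.59e-05). On the array of IBF25, KCNJ5 (8.99), KCNE3 (9.0), DRD2 (4.17) and KCNMB1 (4.33), the beta subunit of the calcium-opened channel in smooth muscle, had their highest ovary values. A further KCNMB1 probeset was 9.11 there and 2.09 to 4.15 in the other 6 ovaries, and CNN1 (calponin, of smooth muscle) was 11.2 there and 6.7 to 8.8 in the others.

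Backfat carried CHRNA1 and KCNJ8. CHRNA1 is the alpha subunit of the nicotinic receptor of the muscle endplate. It was at 4.68 to 9.04 (median 6.93) in backfat and at log2 4 or more on all 16 arrays. Ovary came second, at 3.32 to 5.21 (median 4.70), and no array of another tissue exceeded 3.04. Backfat exceeded the other tissues by 4.66 (SE 0.15, adjusted p = 2.17e-40) and the ovary by 2.50 (SE 0.26, adjusted p = 1.48e-13), or by 2.39 without IBF25. The highest values were in YLM19 (9.04) and DUM12 (8.54), both of which carried skeletal muscle mRNA. In the 10 backfat samples whose muscle marker MYLPF was under log2 3, CHRNA1 was 6.31 to 7.89 (6.93 ± 0.53, SD, n = 10), and without the other 6 arrays the difference from the other tissues was 4.56 (adjusted p = 4.15e-40). IBF22, with 7 of 13 muscle genes at log2 4 or more, had the lowest CHRNA1 value, 4.68. The split of arrays rests on MYLPF alone. Only LWF05 and LWM02 had 0 of the 13 muscle genes at log2 4 or more, so the 10 arrays kept were not all without signal of these genes. The part of skeletal muscle in the CHRNA1 values was not tested. CACNA2D1 was at 10.81 in YLM19 and at 5.59 to 7.59 in the other 15. KCNIP2 was also highest in YLM19, at 6.08, with 3.33 to 5.12 in the others.

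KCNJ8 encodes the pore of the ATP-sensitive potassium channel of vascular smooth muscle. It was at 5.26 to 7.56 (median 6.44) in backfat and 4.46 to 6.69 (median 5.25) in thyroid, which overlapped. The gap of 1.08 (SE 0.17, adjusted p = 1.12e-07) was just above the 1 log2 required, and other tissues had means of 3.76 to 4.54. Of the classical adipose receptors, ADRB3, the beta3 adrenergic receptor of fat cells, was at 2.81 to 3.11 in backfat and ADRB1 at 2.03 to 2.20, while ADRA2A was at 1.79 to 1.83. Each had the same level in tissues that are not adipose, within 0.1 log2 of means except for ADRA2A in thyroid. HTRA4, the protease that shares the symbol, was higher in backfat, at 3.86 to 8.0 (median 5.60), than in ovary, at 2.35 to 6.20 (median 5.03), by 1.12 (SE 0.34, adjusted p = 0.00364). It no longer led in backfat when the ovary array of IBF25 or the 6 backfat arrays with MYLPF at log2 3 or more were left out. HTRA1 was at 9.07 or more on all 80 arrays and highest in ovary (11.61 ± 0.39, n = 7).

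**Figure D3:**
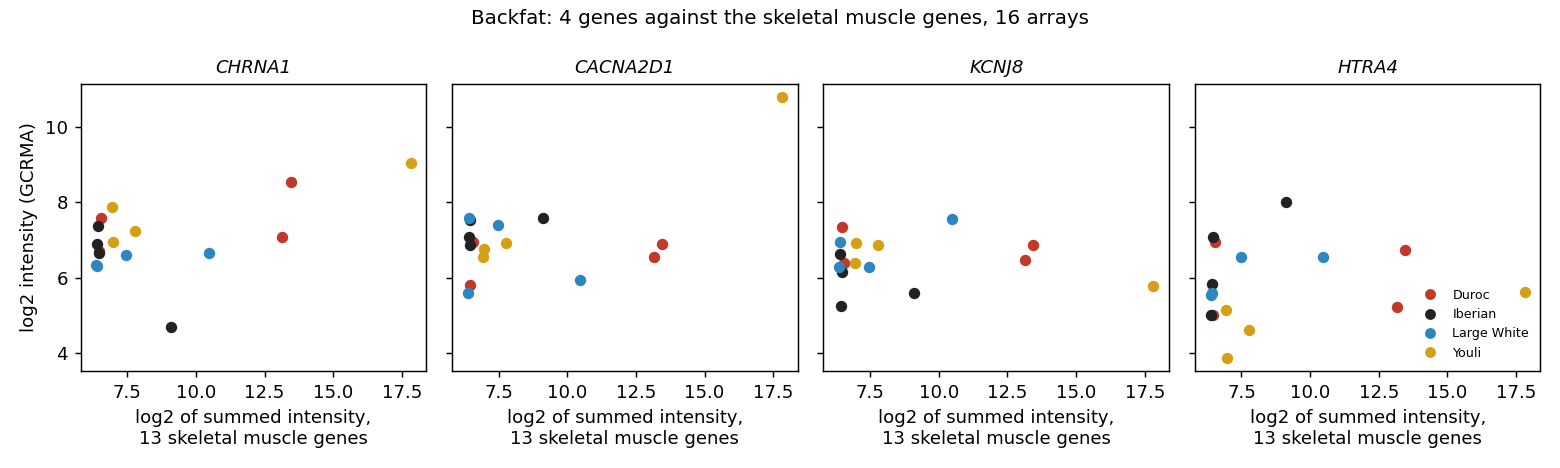
Log2 intensity of CHRNA1, CACNA2D1, KCNJ8 and HTRA4 (vertical axis) on the 16 backfat arrays against the log2 of the summed intensity of 13 skeletal muscle genes (horizontal axis), with points coloured by breed. YLM19, at 17.8 on the horizontal axis, is highest for CHRNA1 (9.04) and CACNA2D1 (10.81), and the 10 arrays with MYLPF under log2 3 have CHRNA1 at 6.31 to 7.89.

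The remaining 25 members stayed under log2 4 in every tissue mean. Of these, 18 were under log2 4 on all 80 arrays, with tissue means between 1.83 and 2.87 that differed by less than 0.5 log2 between tissues. They include KCNA2, KCNJ1, KCNJ2, KCNJ3, KCNN4 and KCNH2 among potassium channels, the partners KCNE2 and KCNE4, the calcium channel subunit CACNB2, the adrenergic receptors ADRB1 and ADRB3, both muscarinic receptors (CHRM1 and CHRM2) and 5 serotonin receptors. These probesets were slightly brighter in backfat, by a median of 0.05 log2. The other 7 (ADRA2A, CACNG3, GRIN1, HTR1D, KCNF1, KCNMA1 and KCNMB1) reached log2 4 on 1 to 3 arrays each, all given above except KCNMB1 in the adenohypophysis of LWM02 (4.22). A value near background does not show that a gene is silent. Of the 25 further probesets of members with several, 20 varied by less than 0.5 log2 between tissues, also where the brightest probeset of that gene varied widely, as for HTR2B, KCNB2, KCNE1, KCNN3 and KCNQ1. Of the 5 that varied more, 4 had the same highest tissue as the brightest one (CHRNB2, KCNE3 and both for KCNJ8), and the KCNMB1 probeset described above did not.

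Genes that work with these receptors were counted from 4 lists, against the background shares of all probesets given above (11.8% higher in hypothalamus, 8.6% higher in adenohypophysis, 7.95% lower in thyroid and 10.4% lower in backfat). The lists held 33, 27, 62 and 31 genes, of which 10, 10, 20 and 13 were on the array under a single symbol. Some of these, such as CHAT and CFTR, were near background in every tissue. Of the 10 genes for making, packing or clearing transmitters, 6 were higher in hypothalamus and none lower, with a median difference of 1.54 against -0.03 for all probesets. GAD1 and GAD2, which make GABA, had means of 10.12 and 9.20 there, and in other tissues GAD1 was at 1.96 to 2.05 and GAD2 at 2.61 to 3.56. SLC6A4, the serotonin transporter, was highest in ovary (4.89). MAOB, which breaks down amines, was at 9.47 in hypothalamus and at 2.50 in backfat. Of 10 scaffold genes and receptor partners, 5 were higher in hypothalamus and 2 in adenohypophysis, while 4 were lower in backfat. Of 20 other channels and pumps, 7 were higher and 1 lower in adenohypophysis, and 3 were higher and 2 lower in hypothalamus. The median differences, 0.009 and -0.017, were near those of all probesets (-0.004 and -0.033). Among the 7 was ITPR1, a channel that releases stored calcium, at 4.55 in adenohypophysis and at 2.18 to 2.23 elsewhere. Of 13 genes of G protein signalling, 6 were higher in hypothalamus and 6 in adenohypophysis, with median differences of 0.81 and 0.83, and none was lower in either. GNG3, a G protein gamma subunit, and GRK4, a kinase that switches receptors off, were at 9.98 and 9.75 in hypothalamus, 5.40 and 7.44 in adenohypophysis and at 2.60 to 2.94 in the other tissues. In thyroid none of the 13 was higher and 3 were lower. The ovary likewise had 3 lower (background 6.31%) and 0 higher. In testis 5 were lower (background 8.31%) and 1 higher, and in backfat 5 were lower and 1 higher.

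Sex was compared within each tissue with breed as covariate. In the gonads this is the comparison of testis with ovary, in which organ and sex cannot be told apart, and 11 members passed at an adjusted p under 0.05 (23.4% of the 47, against a background of 28.3% of all probesets). In testis 7 were lower (background 13.2%). KCNN3 was lower by 5.55 (SE 0.94, adjusted p = 0.000806), and its 9 testes, at 2.03 to 2.15, overlapped the 7 ovaries only through IBF25. CHRNA1, at 1.69 to 3.04 in testis and 3.32 to 5.21 in ovary, and CACNB3, at 2.37 to 2.89 and 3.66 to 4.93, did not overlap, with differences of -2.10 (SE 0.32, adjusted p = 0.000431) and -1.60 (SE 0.18, adjusted p = 3.94e-05). KCNIP4 (-2.50), KCNE3 (-1.80), KCNJ5 (-1.28) and HTRA1 (-1.09) were also lower, with overlapping arrays. The other 4 were higher in testis (background 15%), namely KCNE1 by 3.83 (SE 0.69, adjusted p = 0.00125), KCNQ1 by 1.65, KCNB2 by 1.32 and KCNIP1 by 1.11.

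Several of these calls lay close to the threshold. The adjusted p rose above 0.05 when any of 12 animals was left out for KCNE3 (up to 0.0993) and for KCNQ1 (up to 0.145), of 10 for KCNIP4, of 8 for KCNJ5, of 2 for HTRA1 (LWF05 and YLF21) and of 1 for KCNIP1 (IBM24). CACNB3, CHRNA1, KCNB2, KCNE1 and KCNN3 passed whichever animal was left out. Without the ovary array of IBF25, 11 members passed again, with HTRA4 (-2.12, adjusted p = 0.000748) in place of KCNQ1 (1.38, adjusted p = 0.0796).

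**Figure D4:**
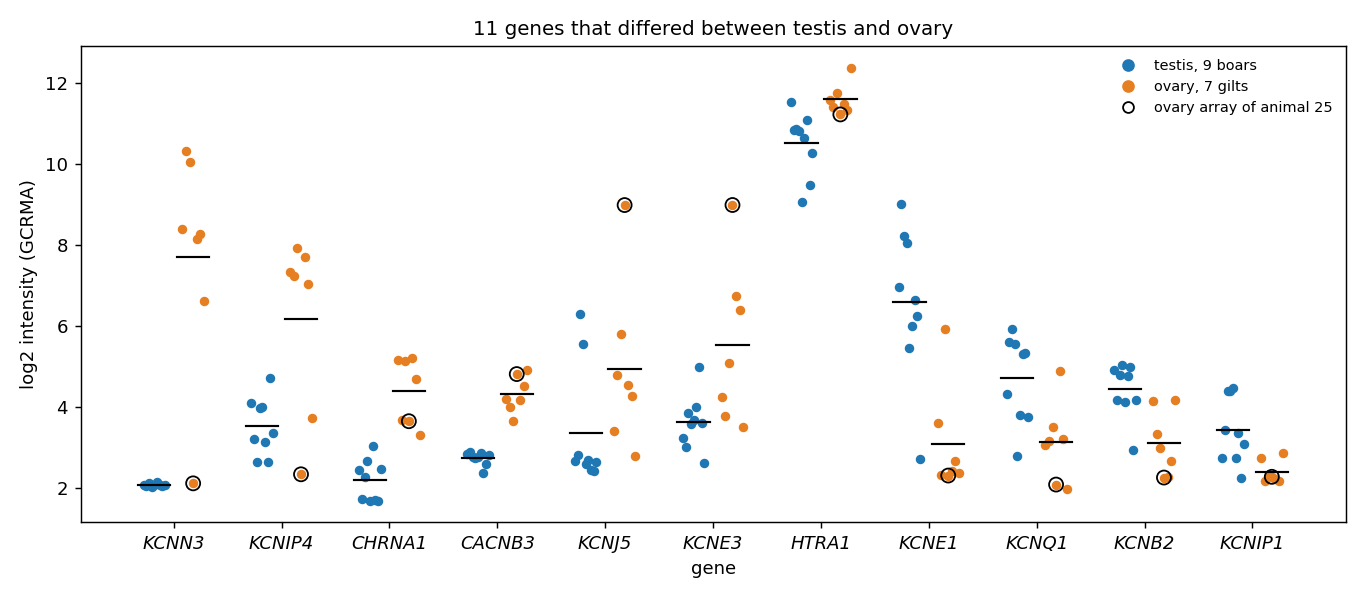
Log2 intensity (vertical axis) of the 11 genes that passed between testis (9 boars, blue) and ovary (7 females, orange), with 1 point per array and bars for the means; circles mark the ovary array of IBF25. KCNN3 is at 2.03 to 2.15 in testis and 6.63 to 10.33 in the 6 other ovaries, and the circled array is the highest for KCNJ5 (8.99) and KCNE3 (9.0).

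No member passed for sex in hypothalamus (background 0.0667%, of which 0.0292% higher in males and 0.0375% in females), adenohypophysis (0.5%, of which 0.0958% and 0.404%), thyroid (0.0792%, of which 0.0375% higher in males and 0.0417% higher in females) or backfat (0.05%, of which 0.025% higher in males and 0.025% higher in females). At an unadjusted p under 0.05, 6 members did so in adenohypophysis (background 7.4%) and 1 in each of hypothalamus (1.72%), thyroid (3.8%) and backfat (2.24%). The smallest p was that of KCNMA1 in adenohypophysis, lower in males by 0.30 (SE 0.08, adjusted p = 0.232), where DUF13, YLF21 and DUF14 had 2.86, 2.72 and 2.58 and the 9 males 2.14 to 2.22. In the other tissues it belonged to HTRA1 in hypothalamus (0.14 higher in males, adjusted p = 0.998), KCNIP2 in thyroid (0.28 higher, adjusted p = 0.739) and CHRNB2 in backfat (0.28 higher, adjusted p = 0.999). In means over the 5 tissues of each animal, KCNN3 was lower in males by 1.12 (SE 0.19, adjusted p = 0.00492), KCNE3 lower by 0.62 (SE 0.14, adjusted p = 0.0243) and KCNE1 higher by 0.74 (SE 0.14, adjusted p = 0.0103), against a background of 5.48%, of which 2.93% were lower and 2.55% higher in males. These 3 genes were also among the 11 of the gonads, which are part of the mean. The KCNE3 call was lost without any of 5 animals, and with all 80 arrays in 1 fit and the animal as a random block none of the 3 passed.

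Breed was compared by a moderated F test within each tissue, with sex as covariate. The labels do not say which company an animal came from, so that the part of origin in breed differences was not tested. Of the 47 members, 1 passed in thyroid (background 0.575%), namely KCNE3, and none in hypothalamus (background 0.171%), adenohypophysis (0.3%), testis (0%), ovary (0.00417%) or backfat (0.817%). At an unadjusted p under 0.05, 2 members passed in hypothalamus (background 11.5%), 4 in adenohypophysis (16.3%), 3 in thyroid (14.3%), 2 in testis (14%), 1 in ovary (7.15%) and 8 in backfat (21.1%).

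KCNE3 was lowest in the thyroid of Duroc pigs, with 7.07 in DUF13, 7.60 in DUF14, 8.06 in DUM12 and 7.12 in DUM15. The Iberian pigs had 8.71 in IBF22, 9.07 in IBF25, 8.72 in IBM23 and 9.20 in IBM24. The Youli pigs had 10.04 in YLF21, 9.65 in YLM18, 9.60 in YLM19 and 9.41 in YLM20, and the Large White pigs 10.67 in LWF05, 11.30 in LWF06, 10.15 in LWM02 and 9.18 in LWM04. No Duroc value reached that of any other breed, and the Large White and Youli values overlapped. The F statistic was 25.5 (adjusted p = 0.0112), and Duroc lay below the mean of the other breeds by 2.21 (SE 0.28). The further probeset of this gene was noisier, with means of 4.12 in Duroc, 4.10 in Iberian, 6.28 in Large White and 6.43 in Youli and overlapping ranges. When both probesets were averaged the test no longer passed (adjusted p = 0.0975), nor did it when breed and sex of the thyroid arrays were taken from the label fields that conflict with the titles (adjusted p over 0.99).

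In hypothalamus, where KCNE3 had the smallest p for breed but did not pass (adjusted p = 0.138), Duroc had 2.65 to 3.84 and Large White 3.77 to 5.06. A test of whether the breeds differed more in the thyroid than in the mean of the same animals' other 4 tissues did not pass for KCNE3 (F = 16.8, adjusted p = 0.0752; 0.0292% of probesets passed). In the means over all 5 tissues, KCNE3 was again the only member to pass (F = 14, adjusted p = 0.0354; background 1.3%), and this call was lost when any of 9 animals was left out.

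KCNJ5 had the smallest p in testis. It was at 6.30 in IBM23 and 5.56 in IBM24 and at 2.41 to 2.81 in the other 7 boars. The Iberian testes thus stood apart by 3.30 (SE 0.19) from the mean of the other breeds, but with 2 or 3 animals per breed the F test over all probesets did not pass (F = 104, adjusted p = 0.0629). It passed when arrays were centred on their median (adjusted p = 0.0483), with an intensity trend in the variance (adjusted p = 0.0149) and, where 1 Iberian testis was left and the spread came from the other breeds alone, without either Iberian boar (adjusted p = 0.0423 and 0.0412). In ovary the Iberian values were 5.80 in IBF22 and 8.99 in IBF25, the array without granulosa and oocyte mRNAs, and those of the other breeds 2.80 to 4.80. The log2 of the summed intensity of the Leydig genes was highest in both Iberian testes (15.83 and 15.58, others 14.28 to 15.52), and in ovary it was 14.13 in IBF22, 4.51 in IBF25 and 8.18 to 11.85 in the other 5. Its part in the KCNJ5 values was not tested. In the adenohypophysis, where KCNJ5 is most abundant, the 4 Iberian values were 8.60 to 9.67, and 9.67 was also the highest value of that tissue. CACNB4 in backfat had the smallest p of that tissue (F = 9.46, adjusted p = 0.0899), with 2.71 to 2.88 in the 4 Youli pigs and 2.87 to 3.65 in the others, all under log2 4. It passed without IBF25 (adjusted p = 0.0251). In adenohypophysis CACNA2D1 (adjusted p = 0.211) and in ovary CACNA2D1 (adjusted p = 0.668) had the smallest p.

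**Figure D5:**
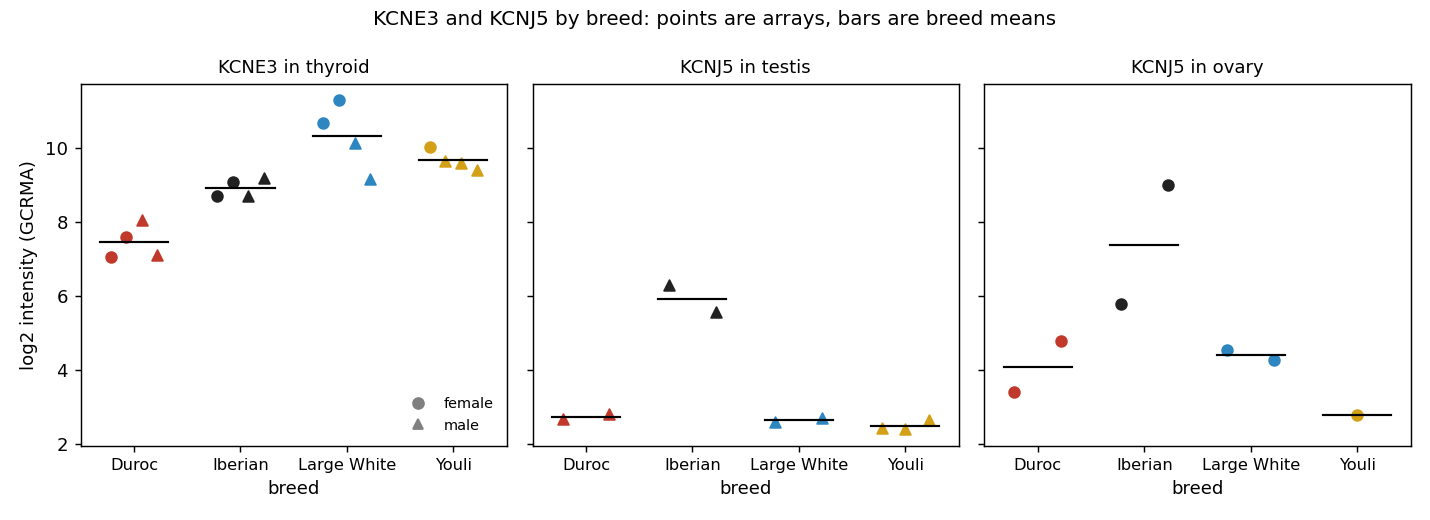
Log2 intensity (vertical axis) of KCNE3 in thyroid (16 arrays) and of KCNJ5 in testis (9) and ovary (7) by breed (horizontal axis); circles are females, triangles males and bars breed means. The Duroc thyroids (7.07 to 8.06) lie below all others, and the Iberian gonads hold the highest KCNJ5 values (5.56 and 6.30 in testis, 5.80 and 8.99 in ovary).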

How the data were processed

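The authors normalised all arrays together by GCRMA and deposited log2 values per probeset, of which 124 control probesets were left out. Of these, 10069 carry 1 gene symbol in the platform annotation, 198 several and 13732 none, and no gene was named from a probeset with several. For each gene the probeset of highest mean was used. Of the 47 symbols, 44 were found in the RefSeq gene table by gene ID, and KCNB2, KCNE1 and KCNH2 were not. Members and lists were chosen with earlier results of these data known. Named genes were, by rule, the members with the largest differences, those leading a tissue, those called by sex or breed and the adrenergic receptors.

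Tissues, sexes and breeds were compared with limma (version 3.58.1, R 4.3.3) on the log2 values, with Benjamini-Hochberg adjustment over all other probesets. The tissue model had breed and sex as covariates and no animal term. The tests were first tested on simulated data. The same animal gave all its tissues, and deviations from tissue means correlated within an animal (r = 0.159 to 0.452, breed and sex not removed). The mean correlation with other animals (-0.06 to 0.000755) is held small by the centring on tissue means, so it is no yardstick. With tissue, breed and sex fitted, the consensus correlation within an animal was 0.0504. The animal as a block was an alternative. Others were array centring, renewed quantile normalisation, leaving out dim probesets, averaging a gene's probesets, array weights, an intensity trend, no covariate, the label fields of thyroid arrays and each animal left out. The number of arrays limits the precision. Sequences and genome coordinates were not used here. The scanner software named in the submitters' notes was GCOS.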

Additional observations from a re-analysis of the deposited data

Results flagged for a closer look

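Of 33 groups of 4 to 9 arrays examined for an array far from the rest, 3 had one. The rule, the gap to the next array over the range, is set to flag about 1 in 20 groups of normally spread values. Examined were testis and ovary for members measured there or called between them, and KCNE3 in the thyroid of each breed. Members at background were not examined. CACNA2D1 was 3.52 in the testis of LWM02 and 5.50 to 7.16 in the other 8 boars. KCNB2 was 2.93 in the testis of YLM19 and 4.13 to 5.03 in the others. KCNE1 was 5.94 in the ovary of IBF22 and 2.31 to 3.62 in the other 6 females. A further KCNMB1 probeset, outside the main comparisons, was highest in ovary, with a mean of 3.93 that rested on IBF25 (9.11), whereas the brightest KCNMB1 probeset had tissue means between 3.08 and 3.26.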

How the results depend on the processing

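Counts of members were recomputed under each alternative. With dim probesets left out, by which members leave the test, they were 1 lower in hypothalamus, 3 lower and 2 leading in adenohypophysis, 1 higher and 0 leading in testis, 2 higher and 0 leading in ovary, 1 higher and 1 leading in backfat, 7 by sex in the gonads and 1 by sex in animal means. With a gene's probesets averaged, 3 were lower in hypothalamus, 4 lower in adenohypophysis, 1 led in testis and 0 passed for breed in thyroid. With the thyroid label fields, 0 passed for breed in thyroid. Median centring and the intensity trend gave 1 by breed in testis. Without the covariate 0 passed for breed in animal means. With 80 arrays and the animal as a random block, 0 passed for sex in animal means. The animal as a fixed replicate block left 11 higher in hypothalamus and changed no other tissue call count by over 1.5 times. At a level of log2 3, the members counted were 11 in thyroid, 14 in testis, 17 in ovary and 11 in backfat, and at log2 5, 4 in testis and 6 in ovary. With each animal left out in turn, counts ranged from 7 to 11 by sex in the gonads, from 2 to 5 by sex in animal means (5 without IBF25), from 0 to 1 by breed in animal means, backfat and testis, and from 0 to 2 by breed in ovary, where KCNE3 and KCNIP4 passed without IBF22. No called difference of a named gene changed sign. The KCNJ5 difference of hypothalamus from ovary and the KCNIP4 difference of adenohypophysis from ovary, neither called, changed sign without the ovary array of IBF25. The label fields were not run for animal means, since they name no animal. Leaving out the ovary array of IBF25 or the 6 backfat arrays with MYLPF at log2 3 or more was chosen after seeing the data.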
